A study of Mus musculus with 2 samples.

Results

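The 8 genes described here carry cytarabine, the nucleoside drug that is the backbone of chemotherapy for acute myeloid leukaemia, into the cell and then activate or inactivate it, or make the natural deoxynucleotides it competes with. They were taken by name: the transporter gene Slc29a1, the kinase gene Dck, the genes of the inactivating enzymes Cda, Dctd, Nt5c2 and Samhd1, and the ribonucleotide reductase genes Rrm1 and Rrm2. They are 8 of 21887 protein-coding genes, and each was described through all peaks over the gene and 25 kb on both sides. The data are 2 lists of broad peaks of H3K27ac, the acetylation of histone H3 at lysine 27 that marks active promoters and enhancers, mapped by ChIP-seq in mouse MA9 leukaemia cells (leukaemia driven by the MLL-AF9 fusion). One list came from Gata2 KO cells (genotype Gata2 -/-, 1 library) and the other from Gata2 f/f cells (the floxed, intact gene, 1 library).

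Per the labels, leukaemia cells were taken from the bone marrow of primary animals, transduced with Cre or with MIT as the control, sorted for GFP and tdTomato, and kept for 7 to 9 days in medium with murine IL-3, IL-6 and SCF before ChIP. Both sample titles carry the word "treat", and no drug is named in the labels. Gata2 encodes a transcription factor of blood stem and progenitor cells, and the series asks about its part in drug resistance. With 1 library for each genotype there was no replicate and no test, so that every difference below describes these 2 libraries. Read depth is unknown. A smaller share of cells with the mark and less of the mark in each cell cannot be told apart.

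Cytarabine enters the cell mainly through the equilibrative nucleoside transporter ENT1, the product of Slc29a1. Deoxycytidine kinase (Dck) adds the first phosphate, the rate-limiting step toward the active triphosphate, which is built into DNA and stops its synthesis. Cytidine deaminase (Cda) and deoxycytidylate deaminase (Dctd) remove the amino group from the drug and from its monophosphate, the 5′-nucleotidase Nt5c2 can take the first phosphate off again, and Samhd1 hydrolyses the triphosphate. Ribonucleotide reductase, made of the large subunit Rrm1 and the small subunit Rrm2, supplies the deoxynucleotides that compete with the drug and that restrain Dck by feedback.

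The KO list held 37234 peaks on chromosomes 1 to 19, X and Y and the f/f list 34272, which covered 48.6 Mb in KO against 46.3 Mb in f/f. The libraries also stood apart outside the genes described here, and the part of these differences in the results below was not tested. With 1 library for each genotype, genotype cannot be told apart from these differences, or from the animals the cells came from. Peaks marked an end of Xist in f/f alone, and ends of Uty, Kdm5d and Eif2s3y on the Y chromosome in KO alone. The first stretches of 6 chromosomes held at least 10 peaks of one list and none of the other, 214 peaks in KO and 42 in f/f. No member lay in such a stretch, and the nearest member locus began 21.4 Mb past the first peaks of its chromosome. Around Gata2 itself, peaks covered 8.41% of the gene and its flanks in KO and 15.4% in f/f, with a gene-end peak in both, so that peaks do not check the deletion. Of 14 marker genes of MLL-AF9 leukaemia and myeloid progenitors, 10 had a peak within 1 kb of a gene end in KO and 13 in f/f. Hoxa9, Meis1 and Mpo were without one in KO, and Mef2c was without one in both lists. Of 20 markers of B, T, erythroid, endothelial, stromal and other organ cells, Cd79a, Cd4, Klf1 and Alb had such a peak in both lists and Pecam1 in f/f alone, and Ms4a1, Cd8a, Ins2 and Myh6 had no peak in their loci in either list.

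Across the 8 loci, most peaks of the cytarabine genes were found in both libraries. Of 706 kb in the 8 loci, KO peaks covered 49.5 kb against 52.3 kb under f/f peaks, a KO-to-f/f ratio of 0.946, against 1.05 over all peaks of the lists. The loci held 33 KO peaks and 34 f/f peaks. Of these, 30 KO peaks (90.9%, 95% Wilson interval 76.4 to 96.9, counting error only) overlapped an f/f peak, and 30 f/f peaks (88.2%, interval 73.4 to 95.3) overlapped a KO peak. Over the whole lists these shares were 77.4% in KO and 83.8% in f/f. The 3 KO peaks and 4 f/f peaks without a counterpart all lay below their own list's median -log10 p, the authors' value for each peak (9.41 in KO and 12.2 in f/f). With peaks at the ends of neighbouring genes left out, the difference over the 8 loci turned from -2.85 kb to 0.114 kb (KO minus f/f). It was -7.89 kb with a minimum -log10 q of 5 and -12.7 kb with peaks enriched at least 3-fold. Over the whole lists these filters left fewer peaks in KO than in f/f, 22459 against 23524 (q) and 19919 against 23036 (3-fold). Over protein-coding genes with coverage, the median difference was -0.0522 percentage points of the locus (q) and -0.170 (3-fold), against 0.102 with all peaks. Of the 3-fold f/f peaks in the 8 loci, 61.1% overlapped a KO peak that was itself enriched at least 3-fold. That share was not counted over the whole lists. The 4 f/f peaks without any KO counterpart were all enriched less than 3-fold.

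**Figure D1:**
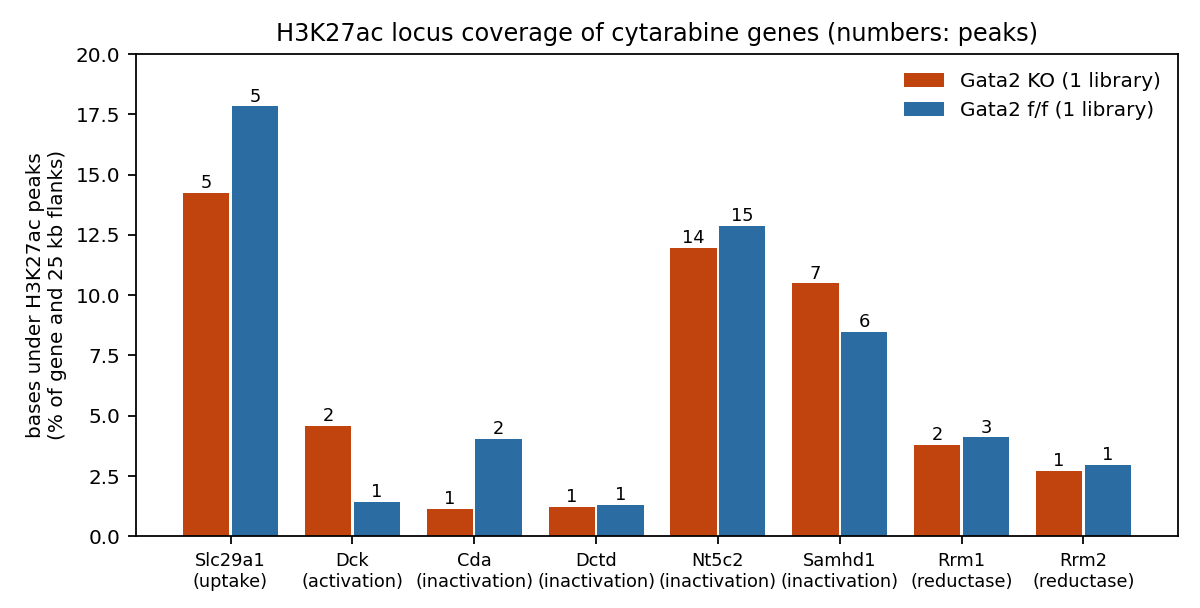
Bases under H3K27ac peaks as a percent of each gene and its 25 kb flanks (vertical axis), in Gata2 KO (left bar) and Gata2 f/f (right bar), 1 library each with no error bars, and with the number of peaks above each bar. Dck and Samhd1 had more coverage in KO, the other 6 genes less, with the widest gaps at Slc29a1, Dck and Cda.

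Locus coverage, the percent of these bases under peaks, was lower in KO at 6 of the 8 genes and higher at 2. Among 16306 protein-coding genes with any coverage, 45.5% were lower in KO and 54.4% higher. The median difference of the 8 genes was -0.278 percentage points (KO minus f/f), against 0.102 over those 16306 genes. A coverage at least 1.5-fold higher in KO was found at 1 member, Dck, and one at least 1.5-fold lower at 1 member, Cda. The background was 14.4% of genes for the first and 10.6% for the second, so that 1 of 8 is near the background in both directions. A peak within 1 kb of either gene end was present at 4 of 8 members in KO and at 6 of 8 in f/f, where 50.3% of all protein-coding genes had one in KO and 50.4% in f/f. With a minimum -log10 q of 5 the count was 4 of 8 in KO and 4 of 8 in f/f. The share of all genes was not counted under that filter. Counted at RefSeq transcription starts instead, which also lie inside genes, 6 of 8 members had a peak in KO and 7 of 8 in f/f, where 51.1% of 17492 genes had one in KO and 51.6% in f/f. Counting starts added Dctd in both lists and Nt5c2 in KO, whose marked starts lie inside the gene, and Cda was marked in f/f alone under both counts.

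**Figure D2:**
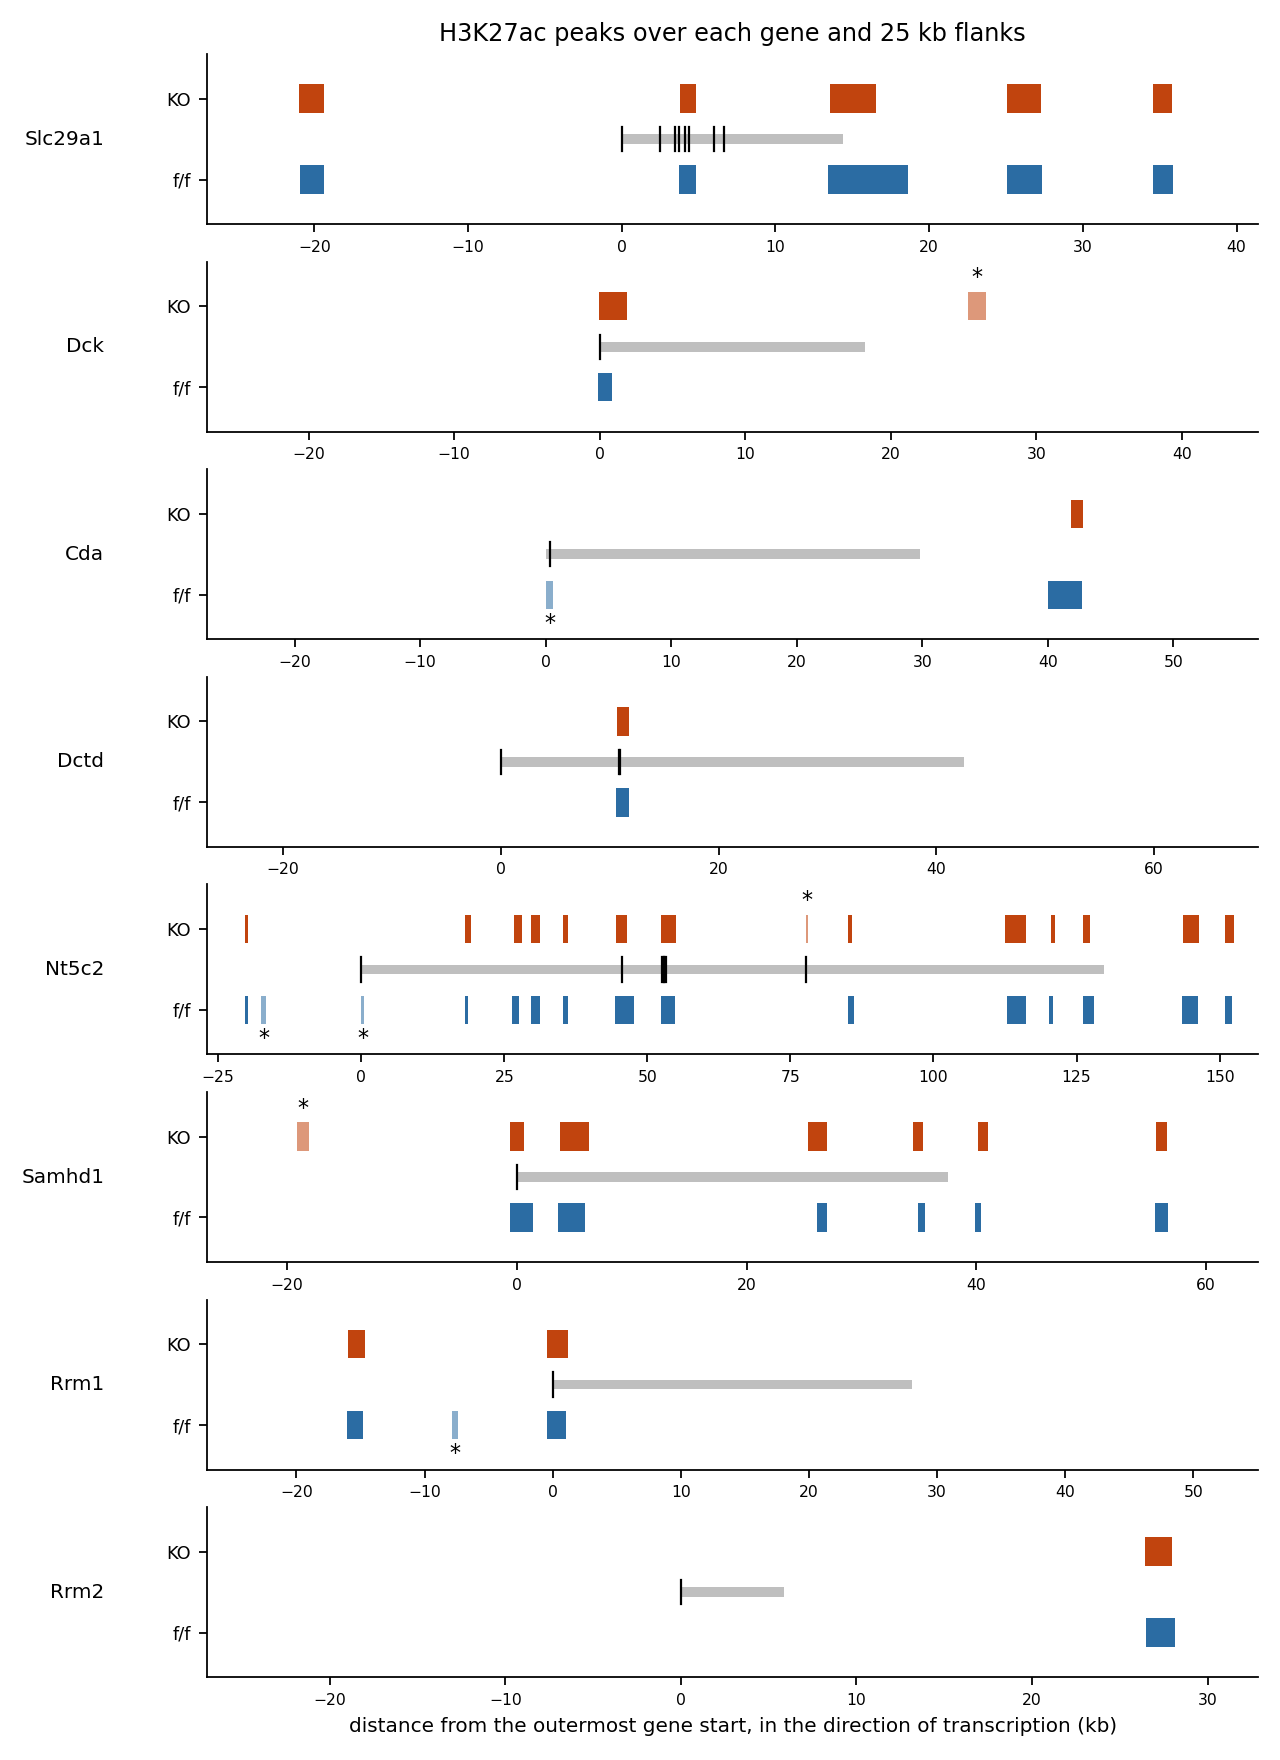
Peaks of the Gata2 KO list (upper boxes) and the Gata2 f/f list (lower boxes) over each gene (grey bar, RefSeq starts as black ticks) and its 25 kb flanks, by distance in kb from the outermost gene start in the direction of transcription. Paler boxes with a star have no overlapping peak in the other list, 3 in KO and 4 in f/f, and all other boxes are matched.

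The uptake gene Slc29a1 (chromosome 17, 45585200 to 45599618, minus strand, mm10) had the highest coverage of the 8 genes in both lists. Peaks covered 14.3% of its locus in KO and 17.8% in f/f, a difference of -3.58 points. Each list had 5 peaks, and every one was matched. RefSeq gives the gene 8 starts, and the outermost one, at 45599618, had no peak within 1 kb in either list. The peak lay instead over the starts at 45595530 and 45595246, and was 1030 bp wide in KO and 1127 bp in f/f. The peak that counted as a gene-end peak was at the 3′ end, 3037 bp wide in KO (45583065 to 45586101) and 5211 bp in f/f (45580970 to 45586180). That single pair made up -2174 of the -2304 bp by which the locus differed. A further peak, centred at -20.2 kb from the outermost start, was 1671 bp wide in KO and 1597 bp in f/f. The remaining pairs lay at ends of the neighbours Nfkbie and Slc35b2, with 1236 bp in KO and 1292 bp in f/f, and of the heat shock gene Hsp90ab1, with 2209 bp in KO and 2260 bp in f/f. With the peaks limited to those enriched at least 3-fold, which drops the one at the 3′ end in both lists, the locus difference was -0.202 points.

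The activating gene Dck (chromosome 5, 88765013 to 88783277, plus strand) had the largest excess of coverage in KO among the members with all peaks, and less than Samhd1 with a minimum -log10 q of 5 (1.31 points at Dck and 2.104 at Samhd1). Peaks covered 4.57% of its locus in KO and 1.44% in f/f, a difference of 3.14 points and a ratio of 3.19. A difference at least as high was seen at 5.33% of all 21887 protein-coding genes, a number that includes genes without any coverage. The peak at its only RefSeq start was 1871 bp wide in KO (88764997 to 88766867) and 980 bp in f/f (88764907 to 88765886). In KO it reached 16 bp before the start and 1854 bp past it, and in f/f 106 bp before and 873 bp past it. The extra width therefore lay inside the gene. Its fold enrichment over background, the authors' value within each list, was 3.20 in KO and 6.38 in f/f. Of 28349 peak pairs in which 1 KO and 1 f/f peak overlap only each other, 5.10% were widened in KO by at least as much. The second KO peak, 25.9 kb downstream of the start (88790317 to 88791568, 1252 bp), had no f/f counterpart and a -log10 p of 3.63. The minimum -log10 q of 5 removed this peak.

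The start windows of the genes differ in their content of CG dinucleotides, which is high in most promoters of constantly active genes. The RefSeq windows (GRCm38.p6, the build of mm10, 250 bases before to 50 bases from the start) are shown for Dck, whose start peak was wider in KO, for Cda, whose start had a peak in f/f alone, and for both kinds of Dctd start, of which only the inner ones had peaks. CG dinucleotides are in capitals, 5′ to 3′ on the strand of the gene.
Dck start, chr5:88764763-88765062, plus strand: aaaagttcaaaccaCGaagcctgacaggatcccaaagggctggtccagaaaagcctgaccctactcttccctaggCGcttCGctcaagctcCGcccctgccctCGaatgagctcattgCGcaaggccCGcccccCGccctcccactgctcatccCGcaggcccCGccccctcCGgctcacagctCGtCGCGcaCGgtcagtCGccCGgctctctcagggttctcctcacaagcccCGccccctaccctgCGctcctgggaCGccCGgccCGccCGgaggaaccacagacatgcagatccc
Cda start, chr4:138367906-138368205, minus strand: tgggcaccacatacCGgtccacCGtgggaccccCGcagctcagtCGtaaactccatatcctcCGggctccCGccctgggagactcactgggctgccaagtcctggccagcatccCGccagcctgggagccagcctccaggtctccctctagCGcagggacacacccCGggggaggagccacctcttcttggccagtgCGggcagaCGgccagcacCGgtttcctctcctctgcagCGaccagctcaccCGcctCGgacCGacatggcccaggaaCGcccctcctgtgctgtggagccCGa
Dctd outermost start, chr8:48098842-48099141, plus strand: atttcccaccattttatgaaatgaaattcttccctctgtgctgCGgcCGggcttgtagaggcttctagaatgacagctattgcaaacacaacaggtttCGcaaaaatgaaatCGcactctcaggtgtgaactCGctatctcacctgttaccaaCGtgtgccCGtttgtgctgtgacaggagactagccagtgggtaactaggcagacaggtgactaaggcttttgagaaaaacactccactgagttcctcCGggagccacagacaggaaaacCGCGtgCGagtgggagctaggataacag
Dctd inner start, chr8:48109708-48110007, plus strand: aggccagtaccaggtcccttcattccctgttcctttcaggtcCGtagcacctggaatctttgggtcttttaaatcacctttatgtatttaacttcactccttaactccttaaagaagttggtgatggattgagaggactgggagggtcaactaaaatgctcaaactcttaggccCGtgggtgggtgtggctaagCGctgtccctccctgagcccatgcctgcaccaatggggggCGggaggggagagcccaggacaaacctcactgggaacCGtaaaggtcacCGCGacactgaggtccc
These windows held 23 CG dinucleotides at Dck, 18 at Cda, 11 at the outermost Dctd start and 7 at the inner one shown. The median was 7 over 32851 RefSeq windows of the same length. The window of the other inner Dctd start, at 48110013 under the same peak, held 11, as many as the outermost one. Over the 23 member starts, the 17 with a peak in at least 1 list had a median of 18 (range 5 to 51) and the 6 without had 8.5 (range 3 to 40). The ranges overlap, and several starts of a gene share bases.

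The inactivating genes differed among themselves. Their summed coverage was 32.7 kb in KO against 34.997 kb in f/f, a ratio of 0.934, with 1 gene higher in KO and 3 lower, and a median difference of -0.510 points. The uptake and activating genes together had 12.3 kb in KO against 12.5 kb in f/f, a ratio of 0.987, in which the difference at Slc29a1 and that at Dck have opposite signs. Their median difference was -0.219 points. Its sign turned with peaks of at least 3-fold enrichment (0.552) and with 50 kb flanks (0.335).

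Cda (chromosome 4, 138338528 to 138368311, minus strand) had the lowest locus coverage of the 8 genes in KO with all peaks, next to Dctd. Peaks covered 1.14% of its locus in KO and 4.05% in f/f, a difference of -2.92 points and a ratio of 0.280. At its RefSeq start, whose sequence is given above, f/f had a peak of 501 bp (138367753 to 138368253), and in KO the nearest peak lay 41513 bp away. Cda was the 1 member marked at an end in f/f while KO had nothing within 5 kb of either end, which held for 1.83% of protein-coding genes. The reverse, an end marked in KO alone, held for 0 members and 1.6% of genes. The f/f peak was among the weaker ones of its list (-log10 p 3.72), and a minimum -log10 q of 5 removed it. The gene body had no other peak in either list. The larger part of the locus difference came from the end of the neighbour Pink1, a mitochondrial kinase gene, where the peak was 906 bp wide in KO and 2733 bp in f/f. Of all peak pairs, 1.27% were narrowed in KO by at least as much. In the Pink1 pair, the fold enrichment was 8.73 in KO and 4.61 in f/f. Without that pair the difference at Cda was -0.628 points, from the start peak alone.

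Dctd (chromosome 8, 48099092 to 48141667, plus strand) had a single peak in each list and nearly the same coverage. Peaks covered 1.21% of the locus in KO and 1.32% in f/f. The peak was 1121 bp wide in KO and 1220 bp in f/f and lay over the inner starts at 48109958 and 48110013, 10.9 kb downstream of the outermost start. That outermost start lay 10.7 kb from the nearest peak in KO against 10.6 kb in f/f. Both peaks lay well above their list's median -log10 p, at 40.7 in KO and 119.4 in f/f. Neither list had a peak in the flanks.

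Nt5c2 (chromosome 19, 46885390 to 47015174, minus strand), the longest of the 8 genes, had the most peaks. It held 14 in KO and 15 in f/f, of which 13 pairs matched, and peaks covered 11.9% of its locus in KO and 12.9% in f/f. Its widest KO peak lay far from any start, 114.3 kb downstream of the outermost one, and was 3675 bp wide in KO and 3292 bp in f/f. It lay below the median of each list, with a -log10 p of 5.46 in KO and 6.03 in f/f. A peak over the starts between 46961882 and 46962563 was 2596 bp wide in KO and 2444 bp in f/f, and one at the start at 46969568 was 2052 bp wide in KO and 3376 bp in f/f. The outermost start, at 47015174, where an end of the neurofilament gene Ina lies within 1 kb of the peak, had a 517 bp peak in f/f (-log10 p 4.62), and the nearest KO peak lay 18.1 kb away. The reverse held at the innermost start, at 46937368, which had a 397 bp peak in KO (-log10 p 4.66) and none within 7.25 kb in f/f. Between the starts at 46969568 and 47015174, 4 matched peaks within the gene lay 18.6 to 35.7 kb downstream of the outermost start (KO midpoints). They were 1011, 1574, 1432 and 1042 bp wide in KO, going toward the outermost start, and 772, 1621, 1251 and 666 bp in f/f. Of the 13 pairs 7 were wider in KO and 6 narrower. The difference was -0.912 points with all peaks and -5.17 points with those enriched at least 3-fold.

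Samhd1 (chromosome 2, 157097534 to 157135096, minus strand) was the other gene with more coverage in KO. In KO 7 peaks covered 10.5% of its locus and in f/f 6 peaks covered 8.48%, a difference of 2.01 points. At least as high a difference was seen at 11.1% of all 21887 protein-coding genes, those without any coverage included. The start peak went the other way from the locus, being 1201 bp wide in KO and 1980 bp in f/f. Of the 1758 bp by which the locus was higher in KO, 1017 bp came from a KO peak upstream of the gene and 741 bp net from the 6 matched pairs. Peaks covered 5.69 kb of the gene itself in KO against 5.20 kb in f/f. A peak 26.2 kb into the gene was 1706 bp wide in KO and 859 bp in f/f, one 34.9 kb into it 823 bp in KO and 587 bp in f/f, and one just past its 3′ end 943 bp in KO and 478 bp in f/f. A peak 4.99 kb into the gene was 2540 bp wide in KO and 2347 bp in f/f. The upstream KO peak, centred at -18.6 kb from the start, had no f/f counterpart and a -log10 p of 5.96, below the KO median.

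**Figure D3:**
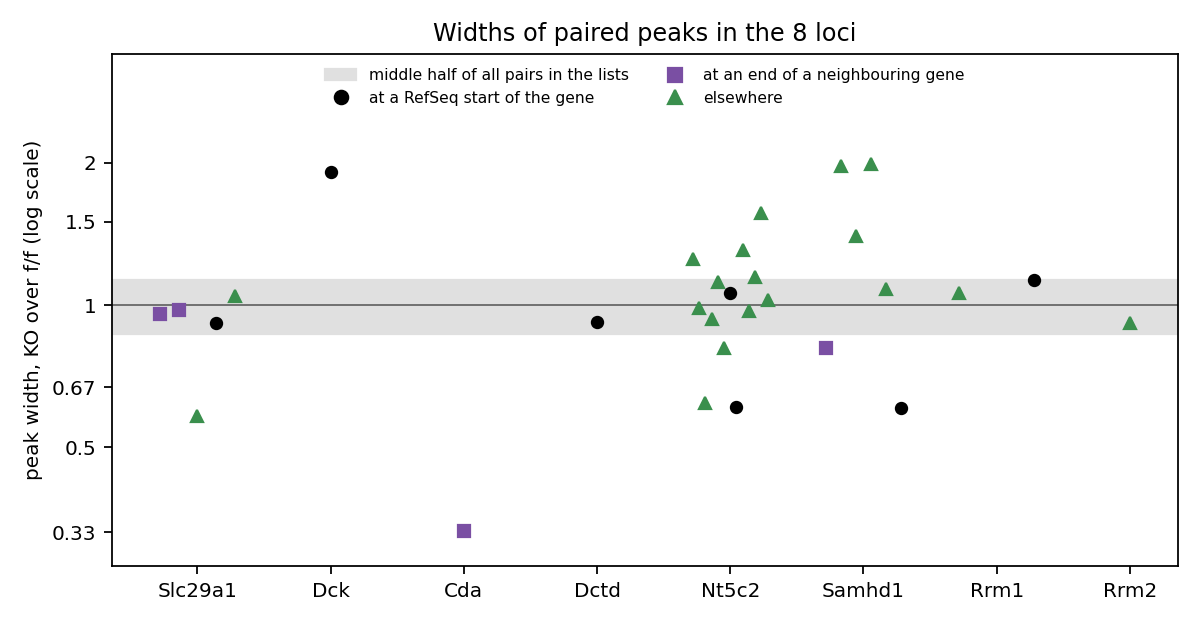
Width of the KO peak over that of the f/f peak (log scale) for the 30 matched pairs of the 8 loci, by gene, with pairs at RefSeq starts, at ends of neighbouring genes and elsewhere marked, and the middle part of all 28349 pairs (quartiles 0.868 and 1.13) as a grey band. The Dck start pair (1.91) lies above the band, and the Samhd1 start pair (0.607) and the pair at the Pink1 end (0.332) lie below it.

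Over all 8 loci, 15 of the 30 pairs were wider in KO and 15 narrower, with a median ratio of 1.00, against 0.991 over all 28349 pairs. Ratios of at least 1.5 were found in 4 pairs, and ratios of 1/1.5 or less in 5, where 10.3% and 9.94% of all pairs lay. Of the 7 pairs at RefSeq starts of the members 3 were wider in KO. Peaks over 2 kb from any gene end, distal by that rule, numbered 23 in KO and 20 in f/f. The rule does not use inner starts, so that these counts include the peaks at inner RefSeq starts of Slc29a1, Dctd and Nt5c2. Of the peaks so counted, 3 in KO and 1 in f/f had no counterpart. The 397 bp peak at the innermost Nt5c2 start is among the KO peaks without a counterpart. Over all peaks of the lists, at any position, 77.4% in KO and 83.8% in f/f had one. The share among distal peaks alone was not counted over the lists.

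Of the reductase genes, Rrm1 was marked at its start in both libraries and Rrm2 in neither. Rrm1 (chromosome 7, 102441695 to 102469771, plus strand) had a peak over its start of 1633 bp in KO (102441262 to 102442894) and 1442 bp in f/f (102441265 to 102442706), with a -log10 p of 73.5 in KO and 149.954 in f/f. A second matched peak, centred at -15.4 kb from the start, was 1330 bp wide in KO and 1256 bp in f/f. A further peak, 507 bp wide and centred at -7.61 kb, was called in f/f alone (-log10 p 4.53). Coverage of the Rrm1 locus was 3.79% in KO and 4.10% in f/f, and the sign of this small difference turned with a minimum -log10 q of 5 (0.339 points).

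Rrm2 (chromosome 12, 24708254 to 24714146, plus strand), the S-phase subunit, had no peak at its start, inside the gene or at its end in either list. The nearest peak began 26.5 kb downstream of the start in both lists, and was 1521 bp wide in KO and 1659 bp in f/f. On the other side the nearest peak lay 45.5 kb upstream in both, so that the gene sat in a stretch of 72.0 kb without a peak. Coverage of the locus, 2.72% in KO and 2.97% in f/f, comes from that 1 downstream peak. A minimum -log10 q of 5 kept it in f/f alone, for a difference of -2.97 points. Of 17492 genes with RefSeq starts, 46.5% had no start peak in either list. Among the 10 other deoxynucleotide synthesis genes examined, all had a gene-end peak in both lists. Over all protein-coding genes, 50.3% had one in KO and 50.4% in f/f. The Rrm2 start window is rich in CG dinucleotides (40), richer than that of Rrm1 (9).

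The start windows of both reductase genes hold a CCAAT box, a common promoter element of growth-related genes, shown here because the one gene is marked and the other is not. CCAAT matches are in capitals.
Rrm1 start, chr7:102441445-102441744, plus strand: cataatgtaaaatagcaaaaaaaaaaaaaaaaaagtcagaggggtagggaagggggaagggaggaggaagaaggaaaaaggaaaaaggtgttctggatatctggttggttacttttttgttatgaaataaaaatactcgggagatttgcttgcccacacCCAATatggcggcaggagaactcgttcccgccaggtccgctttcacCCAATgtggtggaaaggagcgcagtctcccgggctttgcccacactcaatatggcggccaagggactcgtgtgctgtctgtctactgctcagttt
Rrm2 start, chr12:24708004-24708303, plus strand: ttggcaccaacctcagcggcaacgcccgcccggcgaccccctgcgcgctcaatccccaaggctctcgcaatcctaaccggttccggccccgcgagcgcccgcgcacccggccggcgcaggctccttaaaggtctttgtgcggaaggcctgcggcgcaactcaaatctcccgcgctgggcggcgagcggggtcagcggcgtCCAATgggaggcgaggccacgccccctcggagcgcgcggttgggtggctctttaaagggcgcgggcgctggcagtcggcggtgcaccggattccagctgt
Counted from the start, with -1 the base before it, the boxes begin at -91 and -45 in Rrm1 and at -50 in Rrm2. CCAAT on either strand was found in 37.4% of 32851 RefSeq windows and in 6 of the 23 member windows. The E2F sites TTTGGCGC, TTTCCCGC and TTTCGCGC, searched on both strands, were in none of the 23 member windows and in 1.84% of all windows.

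Sites of the GATA type, spelled AGATAA or TGATAA and searched on both strands, lay in 2 of the 23 member windows and in 18.6% of all windows. The windows are shown because Gata2 is the gene deleted in KO, and both lie at inner starts with a peak within 1 kb in both lists. GATA-type matches are in capitals, and those on the opposite strand read as TTATCT or TTATCA.
Nt5c2 inner start, chr19:46962514-46962813, minus strand: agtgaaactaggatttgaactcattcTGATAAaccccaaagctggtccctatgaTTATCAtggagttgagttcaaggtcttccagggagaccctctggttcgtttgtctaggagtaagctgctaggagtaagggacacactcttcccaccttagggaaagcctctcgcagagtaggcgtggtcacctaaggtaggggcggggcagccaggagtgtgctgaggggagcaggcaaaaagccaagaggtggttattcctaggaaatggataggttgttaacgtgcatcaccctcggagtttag
Slc29a1 inner start, chr17:45596078-45596377, minus strand: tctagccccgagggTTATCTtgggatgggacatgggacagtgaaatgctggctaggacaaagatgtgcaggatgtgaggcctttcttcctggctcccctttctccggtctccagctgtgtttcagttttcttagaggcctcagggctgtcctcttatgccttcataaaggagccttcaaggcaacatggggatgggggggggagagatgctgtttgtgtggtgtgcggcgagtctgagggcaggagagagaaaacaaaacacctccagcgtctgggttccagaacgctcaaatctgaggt
Counted in the same way, the matches begin at -224 and -196 in Nt5c2 and at -236 in Slc29a1. The start peaks near them were 2596 bp wide in KO and 2444 bp in f/f at Nt5c2, and 1030 bp in KO and 1127 bp in f/f at Slc29a1. Both Nt5c2 matches lay outside the KO peak, which ended at 46962718. The f/f peak, which ended at 46962757, reached only part of the match at -196. The Slc29a1 match lay outside the peaks of both lists, and the start itself lay 293 bp from the KO peak and 239 bp from the f/f peak. A match of letters does not show binding, and GATA sites outside these windows were not searched.

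Of 50 other genes of nucleoside transport, phosphorylation, dephosphorylation, deamination and deoxynucleotide synthesis, 43 had a gene-end peak in KO and 43 in f/f, and none had one in 1 list alone. Over all protein-coding genes, 50.3% had one in KO and 50.4% in f/f, and 1.6% had one in KO alone and 1.83% in f/f alone. Coverage was higher in KO at 26 and lower at 23, with a median difference of 0.00839 points. Among all genes with any coverage, 54.4% were higher in KO and 45.5% lower, so that this split is near the background. Coverage was at least 1.5-fold higher in KO at 7 of the 49 pathway genes with any coverage and at least 1.5-fold lower at 1. All genes gave 14.4% higher and 10.6% lower. Among its parts, 7 of 11 nucleotidase and pyrophosphatase genes and 4 of 6 deaminase and phosphorylase genes were higher in KO, as were 8 of 18 kinase genes, 5 of 10 deoxynucleotide synthesis genes and 2 of 5 transporter genes. The 3 genes with the largest excess in KO were Umps, the enzyme of the last steps of pyrimidine synthesis (12.4% in KO and 6.92% in f/f), the concentrative nucleoside transporter gene Slc28a3 (5.73% in KO and 1.04% in f/f) and the deoxyribonucleotidase gene Nt5c (12.1% in KO and 7.69% in f/f). Among the 3 with the largest deficit in KO were Slc29a2, which encodes the transporter ENT2 (10.8% in KO and 13.6% in f/f), and Cmpk1 (5.87% in KO and 7.34% in f/f), whose enzyme adds the second phosphate to cytarabine.

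**Figure D4:**
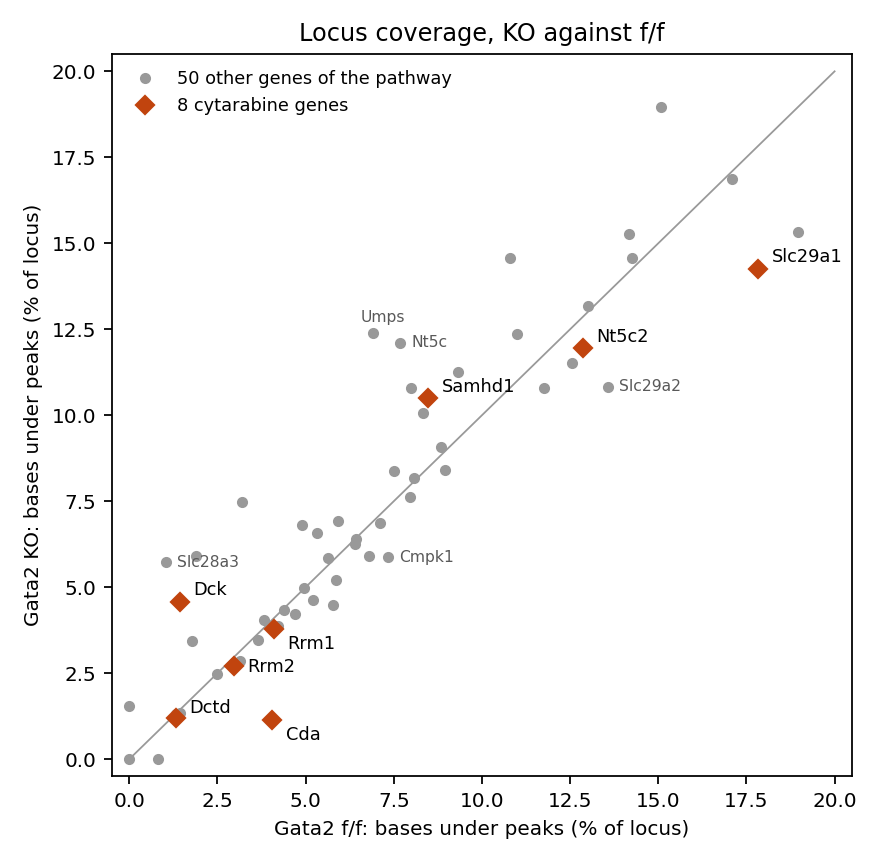
Locus coverage in Gata2 KO (vertical axis) against Gata2 f/f (horizontal axis), in percent of the gene and its 25 kb flanks, for the 8 cytarabine genes (diamonds) and 50 other genes of the pathway (grey), with the line of equal values. Dck lies above the line at 4.57% in KO and 1.44% in f/f, and Cda below it at 1.14% in KO and 4.05% in f/f.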

How the data were processed

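Broad peak lists of H3K27ac ChIP-seq from 1 Gata2 KO and 1 Gata2 f/f library of MA9 cells were used, grouped by the genotype in the labels. Reads were processed with BWA, SAMtools and MACS2 on mm10, per the submitters' processing notes. Their versions and options, and any control library, are not stated there. Read numbers are unknown, and a deeper or better enriched library gives more and wider peaks. For each peak the authors deposited a score (not used), a fold enrichment (a ratio), a -log10 p and a -log10 q, of at least 1.01. These served only to describe or filter peaks within a list.

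Only chromosomes 1 to 19, X and Y were used. Genes, starts and promoter sequences came from RefSeq tables of GRCm38.p6, the build of mm10. All 8 members matched, with 23 starts, as did all 50 other pathway genes. Overlap meant at least 1 bp. Shares have 95% Wilson intervals. Coverage and overlap functions (Python 3.11.15, pandas 2.3.3, SciPy 1.17.1) were tested on simulated intervals. With 1 library per genotype no test was made. Named beside the members were neighbours with an end within 1 kb of a peak, and the 3 pathway genes with the largest difference each way. Of these, 1 pathway gene is not reported here, nor is 1 marker gene. The members and lists were chosen with earlier results of these data known. Alternatives were stricter peaks, equal list lengths, other flanks, gene-end windows and overlaps. RefSeq starts in place of gene ends, and leaving out peaks at neighbours' ends, were added after seeing the data.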

Additional observations from a re-analysis of the deposited data

How the results depend on the processing

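Differences are KO minus f/f, and coverage is in percentage points. Over the 8 loci the covered bases were lower in KO with all peaks (-2.85 kb) and with a -log10 q of at least 5 (-7.89 kb), equal list lengths (-3.89 kb), at least 3-fold enrichment (-12.7 kb), 10 kb flanks (-1.23 kb) and 50 kb flanks (-0.522 kb), and higher without peaks at neighbours' ends (0.114 kb). In the same order of settings, the median of the uptake and activating genes was -1.14 (q), 0.552 (3-fold), -0.499 (10 kb), 0.335 (50 kb) and -0.136 (no neighbours). The median of the inactivating genes was -1.20 (q), -0.799 (equal lengths), -1.20 (3-fold), -0.463 (10 kb), -0.103 (50 kb) and -0.285 (no neighbours), and that of the reductase genes -1.31 (q), -2.17 (3-fold), -0.329 (10 kb) and -0.0278 (50 kb). The median of the other pathway genes was -0.0217 (q), 0 (equal lengths), -0.0517 (3-fold), 0.144 (10 kb) and 0.114 (50 kb). Gene-end peaks were at 4 members in each list with the -log10 q minimum. With 3-fold enrichment, gene-end peaks were at 2 members in KO and 3 in f/f. Of the f/f peaks left, 61.1% overlapped a KO peak that passed the same filter. For these counts no share of all genes or of all peaks was made under either filter. The number of peaks is smaller by construction. It was 22459 in KO and 23524 in f/f (q), and 19919 in KO and 23036 in f/f (3-fold). Over protein-coding genes with coverage the median difference was -0.0522 (q), -0.0193 (equal lengths) and -0.170 (3-fold), against 0.102 with all peaks. The cause of the other shifts was not tested. Of 6 alternatives each, Slc29a1, Dck, Cda, Dctd, Nt5c2 and Samhd1 kept the sign of their difference in 6. Their ranges were -6.60 to -0.202 (Slc29a1), 1.31 to 5.60 (Dck), -2.92 to -0.628 (Cda), -0.158 to -0.0694 (Dctd), -5.17 to -0.137 (Nt5c2) and 0.512 to 2.26 (Samhd1). At Dctd the single peak pair passed every filter and only the locus length changed, so that its sign could not turn. Equal list lengths also left the values of Slc29a1, Dck, Cda and Samhd1 unchanged. So did the -log10 q minimum at Slc29a1 and the setting without neighbours' peaks at Dck. A setting that leaves a value unchanged is no check of its sign. Rrm1 turned to 0.339 with the -log10 q minimum and Rrm2 to 0.229 with 50 kb flanks. With 10 kb flanks the Rrm2 difference was 0, as no peak of either list was left in the locus. No paired analysis was possible because each genotype has 1 library, and for the same reason no replicate could be left out. Unknown depth limits every width and every absent peak.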
